A study of Mus musculus with 8 samples.

Results

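The 32 genes described here encode the proteins that store and break down glycogen, take up and phosphorylate glucose, run glycolysis, and interconvert, move and oxidise lactate and pyruvate. They were listed by name and matched by Ensembl gene identifier, and all 32 were found among the 55417 gene rows of the count tables. The samples were astrocytes flow sorted from 4 wild-type (WT) mice at postnatal day 29, with no treatment and no transgene given in the labels. Both regions were taken from every animal, giving 4 cortical libraries (2 female, 2 male) and 4 subcortical libraries (2 female, 2 male). The sources used here do not state the subcortical structures, or which reporter or antibody served the sort. The count tables do hold a row for the reporter Tdtomato, but its use in the sort is not stated.

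Astrocytes hold most of the glycogen of the brain, and noradrenaline acting on their adrenergic receptors is a classic trigger of its breakdown. Glycogen is built from UDP-glucose by glycogen synthase and the branching enzyme, and it is degraded by glycogen phosphorylase. Sugar phosphates from either glycogen or blood glucose enter glycolysis, and the pyruvate formed is reduced to lactate for export to neurons or is oxidised in mitochondria. The step from pyruvate to acetyl-CoA is made by pyruvate dehydrogenase, which the pyruvate dehydrogenase kinases switch off.

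The libraries read transcript 3′ ends, and gene counts summed to 3.54 to 4.06 M per cortical library and 2.48 to 3.83 M per subcortical library. Levels are counts per 1 M (CPM) of TMM-scaled library size, a scaling by trimmed mean log ratios, and a single count was worth 0.234 to 0.261 CPM in cortical and 0.279 to 0.481 CPM in subcortical libraries. Since the assay counts about 1 fragment per transcript end, CPM values of different genes are comparable without dividing by transcript length, as far as each gene's 3′ end is annotated and unique. All 9 astrocyte markers examined were detected, with a summed level of 21970 to 24020 CPM in cortical and 15190 to 16160 CPM in subcortical libraries. The higher cortical sum came from the glutamate transporter genes Slc1a2 and Slc1a3, whereas Aqp4, S100b and Gjb6 were lower in every cortical library than in any subcortical one and the other 4 overlapped. Among markers of other cells, the 5 oligodendrocyte markers summed to 578.8 to 1037 CPM in cortical and 1865 to 4953 CPM in subcortical libraries, so this signal was higher in every subcortical library. The 5 microglia markers ran the other way as a sum, with 109.7 to 262.6 CPM in cortical and 44.4 to 91.8 CPM in subcortical libraries. Singly, Cx3cr1 and C1qa separated the regions, whereas P2ry12, Tmem119 and Csf1r overlapped. The 3 ependymal markers summed to 17.3 to 38.1 CPM in cortical and 38.4 to 67.8 CPM in subcortical libraries, a gap carried by Foxj1, since Tmem212 and Rsph1 overlapped. The part of these markers' cells in the differences described here was not tested. Mural cell markers (399.9 to 864 against 251 to 988.3 CPM) and neuron markers (97.2 to 172.9 against 72.7 to 122.8 CPM) overlapped between cortical and subcortical libraries as sums. Of the 10 neuron markers, Syt1, Tubb3 and Slc17a7 were higher and Nefl was lower in every cortical library than in any subcortical one. Endothelial markers were near 0, with 3.04 to 8.34 CPM in cortical and 0.961 to 14.7 CPM in subcortical libraries and Tek at 0 counts throughout. In such bulk samples a change in the mix of cells and a change in RNA per cell cannot be told apart.

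The promoters below are shown because they belong to the called genes with the smallest adjusted p among rises (Ppp1r3g) and falls (Slc2a1 and Pygm) in cortical cells, and to the gene whose window had the most motif matches (Ldha). Each runs 5′ to 3′ in the direction of transcription, from 250 bases before to 50 bases after the RefSeq start of the GRCm38.p6 assembly. Capitals mark matches, on either strand, to the letters TGACG (the short form of the cAMP response element) or ACGTG (the core of the hypoxia response element), which overlap where they share bases.
Ppp1r3g (glycogen-targeting subunit, chr13:35967656-35967955, strand +): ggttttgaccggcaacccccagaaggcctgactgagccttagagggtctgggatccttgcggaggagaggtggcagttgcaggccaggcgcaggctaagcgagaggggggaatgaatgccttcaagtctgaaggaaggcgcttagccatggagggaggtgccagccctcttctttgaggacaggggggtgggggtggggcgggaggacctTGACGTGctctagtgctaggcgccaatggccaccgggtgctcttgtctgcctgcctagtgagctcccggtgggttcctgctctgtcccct
Pygm (glycogen phosphorylase, muscle form, chr19:6384158-6384457, strand +): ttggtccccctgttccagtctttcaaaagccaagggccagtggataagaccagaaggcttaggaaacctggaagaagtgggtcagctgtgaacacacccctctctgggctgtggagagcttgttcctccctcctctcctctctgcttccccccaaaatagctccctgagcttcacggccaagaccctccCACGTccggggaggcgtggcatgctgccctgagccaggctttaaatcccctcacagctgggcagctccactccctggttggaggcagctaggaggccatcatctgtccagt
Slc2a1 (glucose transporter, chr4:119108495-119108794, strand +): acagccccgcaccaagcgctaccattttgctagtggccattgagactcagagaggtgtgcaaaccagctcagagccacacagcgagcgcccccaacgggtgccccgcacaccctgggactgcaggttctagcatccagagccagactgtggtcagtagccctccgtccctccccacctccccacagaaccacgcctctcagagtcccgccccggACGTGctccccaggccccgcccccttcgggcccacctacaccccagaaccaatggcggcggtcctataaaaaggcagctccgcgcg
Ldha (lactate dehydrogenase A, chr7:46845554-46845853, strand +): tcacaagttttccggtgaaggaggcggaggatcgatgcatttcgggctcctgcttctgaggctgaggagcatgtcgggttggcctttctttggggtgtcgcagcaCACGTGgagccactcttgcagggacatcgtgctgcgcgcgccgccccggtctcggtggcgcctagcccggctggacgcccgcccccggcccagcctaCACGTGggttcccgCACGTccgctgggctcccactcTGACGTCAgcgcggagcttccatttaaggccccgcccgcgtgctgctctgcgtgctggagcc
The Ppp1r3g window held 1 match of each motif, and they overlap, while the Pygm and Slc2a1 windows held 1 ACGTG each and no TGACG. The Ldha window held 5 ACGTG, 2 TGACG and 1 full TGACGTCA, where palindromes count on both strands. RefSeq start windows were found for 31 of the 32 genes, 47 windows in all, since several genes have more than 1 annotated start. ACGTG was present in 53.2% of these windows and in 19.6% of all 32851 windows of that length. TGACG was present in 27.7% and 20.8%, and the E-box CACGTG, which contains ACGTG, in 17% and 7.15%. The listed genes' windows were also richer in G and C, with a median of 62.0% against 52.7% for all windows, and the part of base composition in the motif shares was not tested. These matches describe letters and not binding.

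The comparison of cortical with subcortical astrocytes addresses which steps of glucose and glycogen metabolism differ between regions. Cortical libraries had more mRNA for the glycogen-targeting subunit Ppp1r3g (5.04-fold) and for the UDP-glucose enzyme Ugp2 (2.47-fold). They had less for the muscle-form glycogen phosphorylase Pygm (1.74-fold lower) and the glucose transporter Slc2a1 (2.0-fold lower). By edgeR's quasi-likelihood test with Benjamini-Hochberg adjustment over all genes, 7 of the 26 genes with enough counts to test passed an adjusted p of 0.05. Ppp1r3g, Ugp2 and Pygb were higher and Pygm, Slc2a1, Pfkfb3 and Eno1 were lower in cortical cells. That is 26.9% of the tested genes of the list, where 6.81% of all 11781 tested genes were called by region, 3.42% higher and 3.39% lower in cortical cells. With the mouse as a block 2 listed genes were higher and 4 lower, against 3.72% higher and 3.79% lower, or 7.51% in all, of all genes. DESeq2 called 4 higher and 5 lower, against 8.73% of all genes, and added Pdha1 and Pkm. Most of the list is abundant. Among genes with a mean of at least 50 CPM the shares were 31.8% of 22 listed and 15.1% of all 2928 genes. The list was chosen with earlier results of these data known, so its shares describe these genes and do not test the pathway. The median log2 fold change was 0.14 over the 26 tested genes and -0.0099 over all tested genes, with 16 of the 26 above 0.

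**Figure D1:**
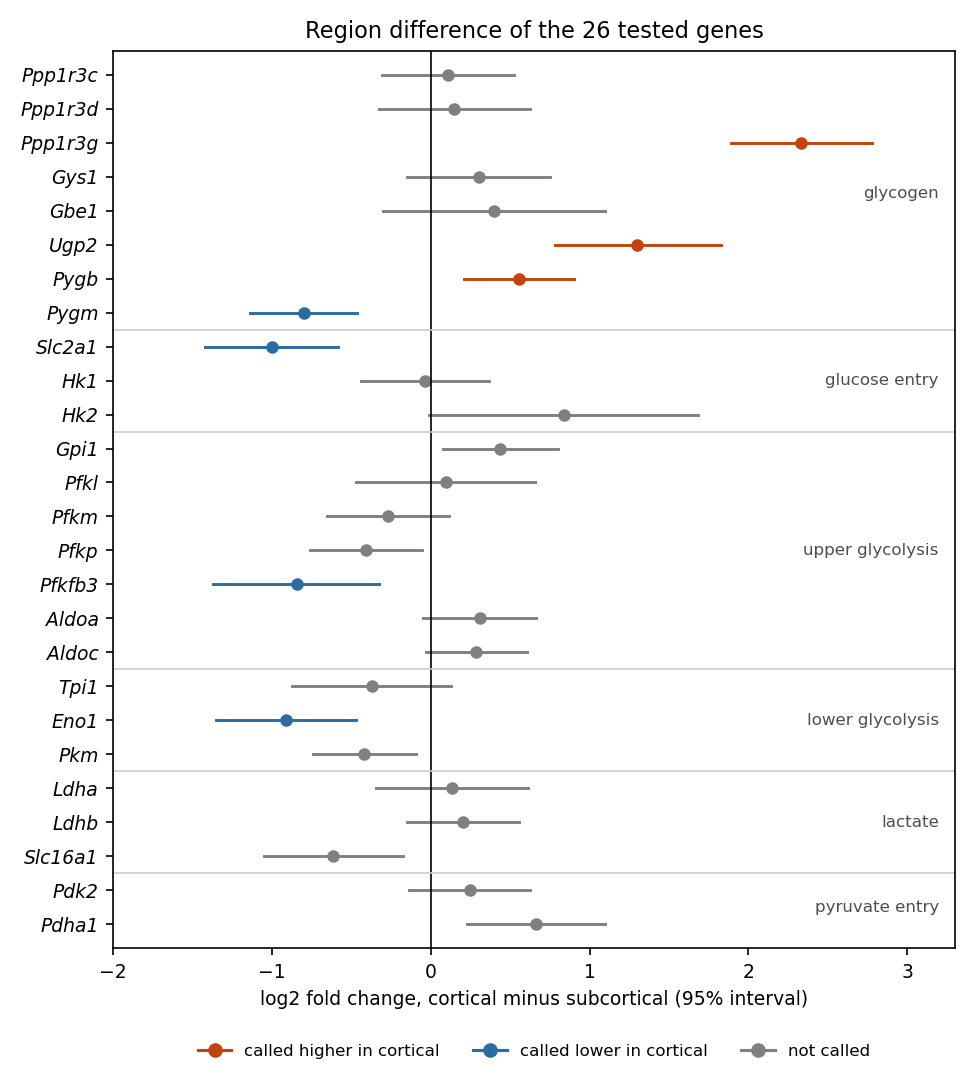
Log2 fold change (cortical minus subcortical, x axis) with its 95% interval for each of the 26 tested genes, grouped by step from glycogen (top) to pyruvate entry (bottom). Ppp1r3g stands apart at 2.33, and the called genes of glucose uptake and glycolysis lie below 0.

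With raw library totals in place of TMM scaling the median log2 fold change of all genes was 0.19, and 7.86% of all genes were called. On that scale 5 listed genes were higher and 2 lower in cortical cells, against 3 and 4 with TMM scaling. Over all genes the split was 682 higher and 244 lower, against 403 and 399 with TMM scaling. The directions below are therefore relative to the bulk of the genes.

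**Figure D2:**
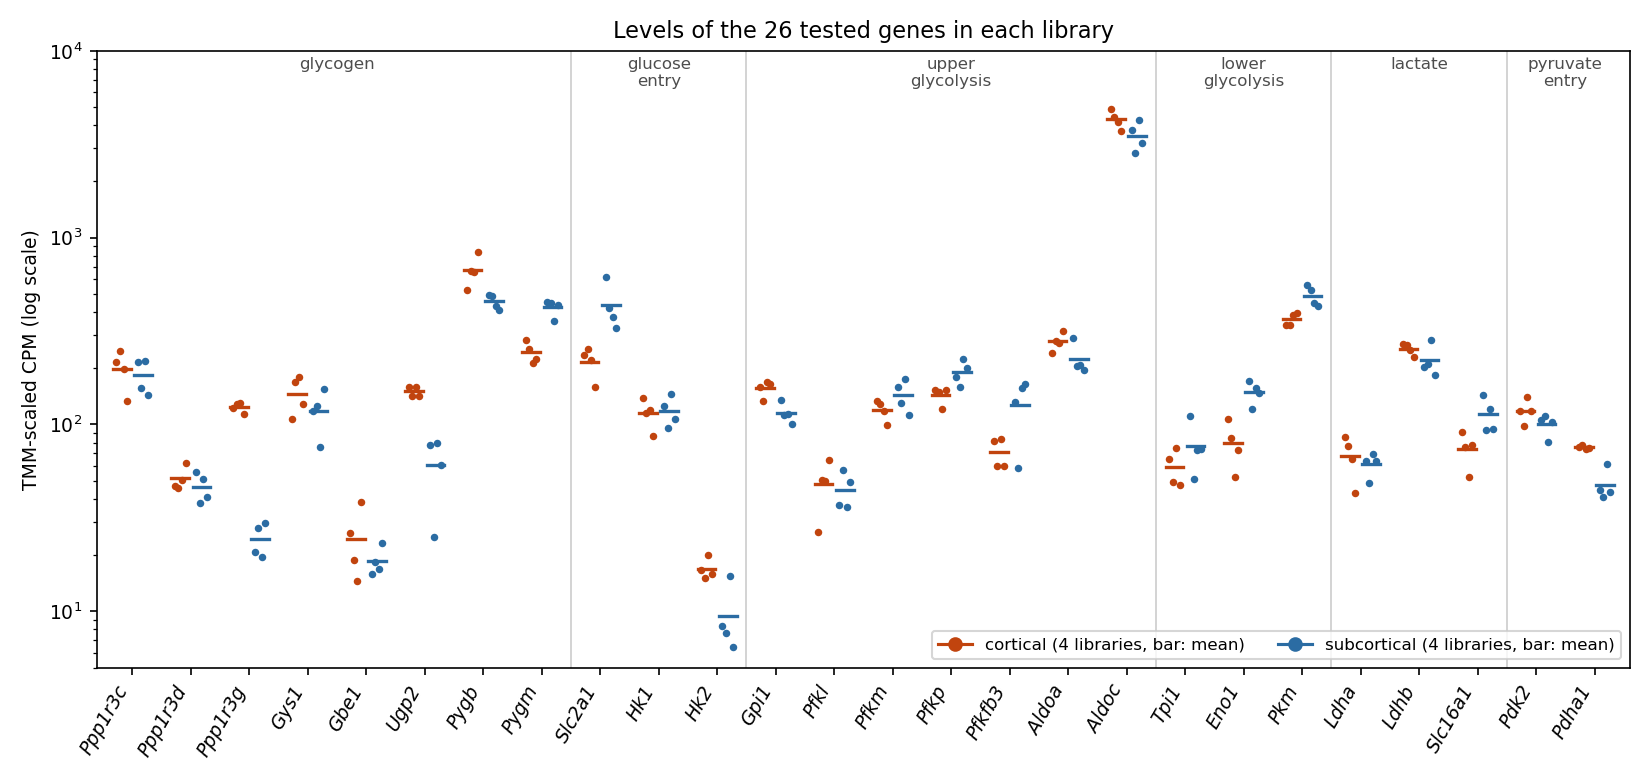
TMM-scaled CPM (y axis, log scale) of the 26 tested genes in each of the 4 cortical and 4 subcortical libraries; points are libraries and bars are means. Aldoc lies above all others at 2844 to 4879 CPM, and Hk2 is the lowest, at 6.41 to 20.1 CPM.

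Of the steps, glycogen turnover held the most called genes. Of its 8 genes 3 were higher, 1 was lower and 4 were not called, or 50% called, where 6.81% of all tested genes were. Among all genes with a mean of at least 50 CPM 15.1% were called, and the glycogen genes were listed with earlier results known. With the mouse as a block 37.5% were called, against 7.51% of all genes. For glucose entry and for lower glycolysis the share was 33.3% of 3 tested genes in either fit. The summed level of the 8 glycogen genes was 1607 ± 89.6 CPM in cortex, against 1332 ± 88.8 CPM in subcortex (SD, n = 4 each). The targeting subunits bring protein phosphatase 1 to the glycogen particle, where it activates glycogen synthase and inactivates phosphorylase. Ppp1r3g (ENSMUSG00000050423) had 122.1, 129.3, 129.9 and 114.2 CPM in the cortical libraries of mice 1 to 4, against 20.81, 27.87, 19.57 and 29.81 CPM in their subcortical libraries. Every cortical value was thus far above every subcortical one, and the ratio within a mouse ran between 3.83 and 6.64. The log2 fold change was 2.33 (SE 0.21, 95% interval 1.89 to 2.78, edgeR adjusted p = 1.3e-07).

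Its relative Ppp1r3c, the subunit also known as protein targeting to glycogen, had 215.6, 247.7, 197.4 and 133 CPM in cortical libraries, against 216.8, 156.7, 217.7 and 144.3 CPM in subcortical ones. These ranges overlap almost wholly (log2 fold change 0.11, 95% interval -0.31 to 0.53, edgeR adjusted p = 0.855). Ppp1r3d, another subunit, averaged 51.4 ± 7.63 CPM in cortex, against 46.4 ± 8.36 CPM in subcortex (SD, n = 4 each, edgeR adjusted p = 0.825). The make-up of the 3 subunits together is a description without a test. Ppp1r3g held 33.4 ± 2.81% of their summed CPM in cortical and 10.1 ± 3.65% in subcortical libraries (SD, n = 4 each). Ppp1r3c held 52.5 ± 6.86% in cortical and 71.7 ± 3.75% in subcortical libraries, with no overlap between the regions for either gene. These shares are tied, so a larger Ppp1r3g share lowers that of Ppp1r3c, whose own level overlapped between regions. Ppp1r3c was the most abundant of the 3 in all 8 libraries.

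Ugp2 (ENSMUSG00000001891), whose product makes the UDP-glucose that glycogen synthase uses, had 159.5, 142.6, 158.6 and 142.6 CPM in cortical libraries, against 77.81, 24.99, 79.68 and 60.74 CPM in subcortical ones. The subcortical library of mouse 2 was the lowest by far, but the other 3 also lay well under the cortical range. The log2 fold change was 1.30 (SE 0.25, edgeR adjusted p = 0.0016), and 1.05 without that library (edgeR adjusted p = 0.00139). Gys1, the synthase itself, averaged 146.3 ± 33.9 CPM in cortex, against 118.6 ± 32.2 CPM in subcortex (SD, n = 4 each, edgeR adjusted p = 0.543). The branching enzyme gene Gbe1 averaged 24.5 ± 10.4 in cortex, against 18.5 ± 3.25 CPM in subcortex (SD, n = 4 each, edgeR adjusted p = 0.622). For both genes the ranges of the regions overlapped.

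The phosphorylase genes went in opposite directions. Pygm (ENSMUSG00000032648), the muscle form, had 284.1, 252.9, 213 and 223 CPM in cortical libraries, against 454.4, 449.3, 357.5 and 433.5 CPM in subcortical ones. The groups do not overlap, and the cortical value was 0.514 to 0.625 times the subcortical value of the same mouse. The log2 fold change was -0.80 (SE 0.16, edgeR adjusted p = 0.0025). Pygb (ENSMUSG00000033059), the brain form, had 523.2, 662.7, 653.1 and 837 CPM in cortical libraries, against 495.6, 485.9, 429.1 and 410.4 CPM in subcortical ones. Here too every cortical library was higher, but in mouse 1 by only 1.06 times and in mouse 4 by 2.04 times.

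The call of Pygb was close to the threshold (log2 fold change 0.56, SE 0.17, edgeR adjusted p = 0.045). It was lost when mice were blocked (edgeR adjusted p = 0.05 as rounded) and without any library but cortical 1. The edgeR adjusted p was then 0.085, 0.0944 and 0.152 without cortical 2, 3 and 4, and 0.0616, 0.0568, 0.0915 and 0.124 without subcortical 1 to 4. Within a library, Pygb made up 72.9 ± 6.02% of phosphorylase CPM in cortical samples and 51.8 ± 2.43% in subcortical samples (SD, n = 4 each). The lowest cortical share was 64.8% and the highest subcortical share 54.5%. Both forms were thus present in each library, with Pygb ahead in all cortical libraries and near parity with Pygm in subcortical ones.

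**Figure D3:**
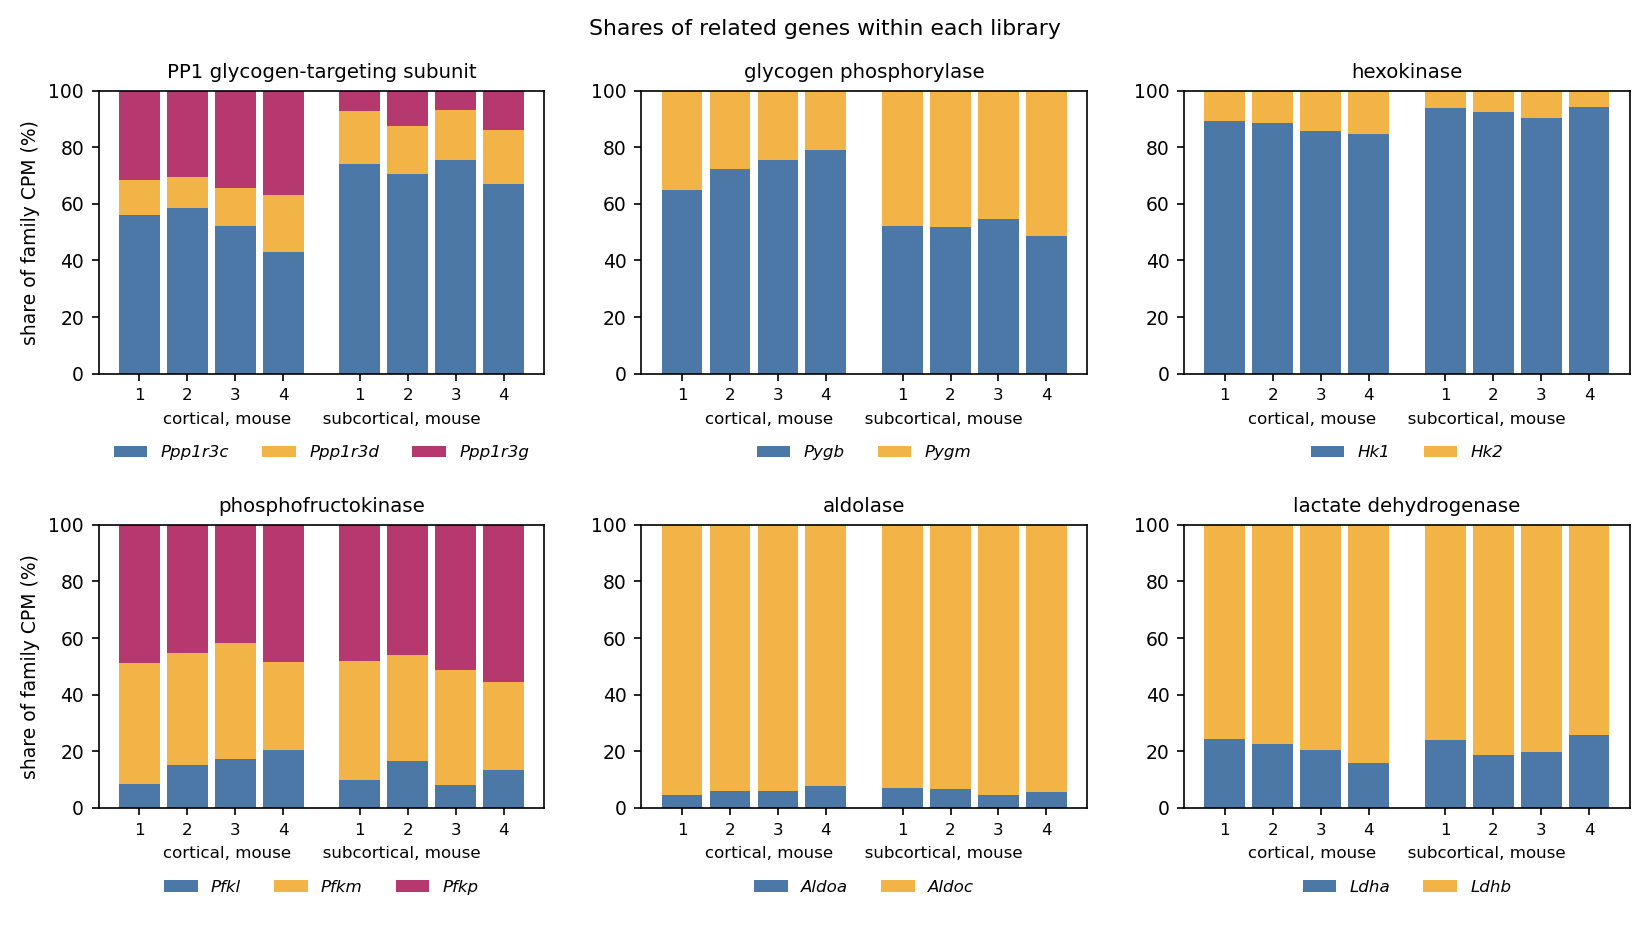
Share of each related gene in the summed CPM of its family (y axis, percent) in each library, for 6 families; bars 1 to 4 are the cortical and then the subcortical samples of mice 1 to 4. The phosphorylase, hexokinase, Ppp1r3c and Ppp1r3g shares separate the regions, whereas the Ppp1r3d, phosphofructokinase, aldolase and lactate dehydrogenase shares overlap. Shares within a family are tied, so a rise of any member lowers the rest.

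Glucose entry was led by a lower level of the transporter in cortex. Of 3 genes 1 was lower and 2 were not called, or 33.3% called, where 6.81% of all tested genes were. Slc2a1 (ENSMUSG00000028645), which encodes the glucose transporter of astrocytes and of the vessel wall, had 235.9, 252.1, 221 and 159.4 CPM in cortical libraries, against 617.1, 417.6, 378.1 and 326.5 CPM in subcortical ones. The lowest subcortical library was above the highest cortical one, and the cortical value was 0.382 to 0.604 times the subcortical value of the same mouse. The log2 fold change was -1 (SE 0.2, edgeR adjusted p = 0.0022). The subcortical library of mouse 1, where Slc2a1 was highest, also had the highest oligodendrocyte marker sum (4953 CPM) and the highest haemoglobin sum (292.9 CPM). Their part in the result was not tested, and without that library the log2 fold change was -0.78 (edgeR adjusted p = 0.0149). Endothelial markers were near 0, and mural markers summed to 399.9 to 864 CPM in cortical and 251 to 988.3 CPM in subcortical libraries. The part of vessel cells in the Slc2a1 difference was not tested.

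The hexokinases trap glucose by phosphorylating it. Hk1 averaged 115.3 ± 21.3 CPM in cortex, against 118.2 ± 22.1 CPM in subcortex (SD, n = 4 each), a log2 difference of -0.04 with a 95% interval of -0.44 to 0.37, whose sign turned under raw library totals. Hk2, the inducible form, had 16.6, 15.1, 20.1 and 15.9 CPM in cortical libraries, against 8.32, 7.69, 15.4 and 6.41 CPM in subcortical ones. It was higher in the cortical sample of all 4 mice, by 1.31 to 2.48 times, but did not pass the test (log2 fold change 0.84, SE 0.41, edgeR adjusted p = 0.295). Hk2 made up 13.01 ± 2.23% of hexokinase CPM in cortical and 7.23 ± 1.72% in subcortical libraries (SD, n = 4 each), without overlap.

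In the upper part of glycolysis 1 of 7 tested genes was lower and 6 were not called, or 14.3% called. The share was 6.81% of all tested genes and 15.1% of those with a mean of at least 50 CPM. The called gene was Pfkfb3 (ENSMUSG00000026773), whose product makes the sugar bisphosphate that activates phosphofructokinase. It had 81.9, 59.7, 83.9 and 59.7 CPM in cortical libraries, against 131.1, 58.6, 157.3 and 163.8 CPM in subcortical ones. In mouse 2 the samples were close (ratio 1.02), whereas the other 3 mice had lower cortical values (ratios 0.365 to 0.625). The log2 fold change was -0.85 (SE 0.25, edgeR adjusted p = 0.044).

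The call lay close to the threshold, and the log2 fold change without any 1 library stayed between -1.08 and -0.70. The call was lost without cortical 1 to 4 (edgeR adjusted p = 0.0692, 0.136, 0.0676 and 0.106), without subcortical 1, 3 or 4 (0.0993, 0.139 and 0.159), with limma-voom (0.0573) and under raw library totals (0.158). Without subcortical 2 the log2 fold change was -1.08 (edgeR adjusted p = 0.00176). Pfkfb2, a relative of Pfkfb3, had 49 counts over the cortical and 42 over the subcortical libraries, too few to test.

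The 3 phosphofructokinase genes, whose products catalyse the committed step, were not called. Pfkp, the platelet form, had 152.8, 149.1, 120.5 and 153.7 CPM in cortical libraries, against 180.2, 159.5, 223.6 and 200.9 CPM in subcortical ones. The groups do not overlap, but the log2 fold change of -0.41 (SE 0.17) missed the threshold over all genes (edgeR adjusted p = 0.197). Pfkm, the muscle form, was lower in the cortical sample of all 4 mice (ratios 0.668 to 0.995), at 119.7 ± 15 CPM in cortex, against 144.2 ± 28.3 CPM in subcortex (SD, n = 4 each, edgeR adjusted p = 0.525). Pfkl, the liver form, averaged 47.8 ± 15.8 in cortex, against 44.8 ± 10.2 CPM in subcortex (SD, n = 4 each, edgeR adjusted p = 0.92). Pfkp held 46.2 ± 3.22% of phosphofructokinase CPM in cortical and 50.2 ± 4.1% in subcortical libraries, and Pfkm 38.5 ± 4.98% in cortical and 37.8 ± 4.86% in subcortical libraries (SD, n = 4 each).

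Gpi1, which interconverts the hexose phosphates, was higher in the cortical sample of all 4 mice, at 156.3 ± 16.3 CPM in cortex, against 115.4 ± 14.8 CPM in subcortex (SD, n = 4 each). Its log2 fold change of 0.44 (SE 0.17) was not called (edgeR adjusted p = 0.163), and was called under raw library totals (0.0297). Aldoc, the aldolase long used as an astrocyte marker, was the most abundant gene of the list. It had 4879, 4416, 4163 and 3699 CPM in cortical libraries, against 3766, 2844, 4266 and 3193 CPM in subcortical ones, and the groups overlapped (log2 fold change 0.29, SE 0.15, edgeR adjusted p = 0.364). Aldoc alone took 52.4 ± 2.99% of the summed CPM of the 32 genes in cortical and 46.5 ± 3.66% in subcortical libraries (SD, n = 4 each). Its relative Aldoa averaged 277.9 ± 31.2 CPM in cortex, against 224.8 ± 44 CPM in subcortex (SD, n = 4 each, edgeR adjusted p = 0.394), so that Aldoc held 93.8 ± 1.31% of aldolase CPM in cortical and 93.9 ± 1.11% in subcortical libraries.

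The lower part of glycolysis yields ATP and pyruvate. Of its 3 tested genes 1 was lower and 2 were not called, or 33.3% called, where 6.81% of all tested genes were. Eno1 (ENSMUSG00000063524), the general enolase gene, had 107.4, 84.2, 52.3 and 72.7 CPM in cortical libraries, against 171.4, 120.6, 155.9 and 147.1 CPM in subcortical ones. No cortical library reached the lowest subcortical one, and the log2 fold change was -0.91 (SE 0.21, edgeR adjusted p = 0.0075, and 0.0594 under raw library totals). Of the 50-base words in the last 300 bases of its annotated transcripts, 86.9% also occur in transcripts of 7 other genes, so its counts are uncertain. For Gpi1, Pfkp, Aldoa, Tpi1, Pkm and Pdha1 the share of such words was 17.9 to 25%, and for the other 6 called genes it was 0%. The near-identical copy Eno1b averaged 27.1 ± 5.79 CPM in cortex, against 20.6 ± 7.86 CPM in subcortex (SD, n = 4 each, edgeR adjusted p = 0.61). The counts of Eno1 and Eno1b together gave a log2 fold change of -0.67 (SE 0.19; adjusted p = 0.03 by edgeR), a sum chosen after the data were seen.

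Pkm, the pyruvate kinase gene, had 339.9, 342.3, 383.6 and 396.2 CPM in cortical libraries, against 558, 522.4, 444.5 and 431.3 CPM in subcortical ones. The groups do not overlap, but the log2 fold change of -0.42 (SE 0.16) was not called by edgeR (adjusted p = 0.131) and was called by DESeq2 (adjusted p = 0.0376). Tpi1, the triose phosphate isomerase gene, averaged 59.4 ± 13.2 CPM in cortex, against 76.9 ± 24.6 CPM in subcortex (SD, n = 4 each, edgeR adjusted p = 0.485). Pgk1 and Pgam1, genes of the steps between, had too few counts to test. Pgk1 had 28 counts over the cortical and 33 over the subcortical libraries. Pgam1 had 0, 4, 49 and 23 counts in the cortical libraries of mice 1 to 4, against 3, 0, 0 and 0 in the subcortical ones, so that cortical 3 and 4 held nearly all of them.

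**Figure D4:**
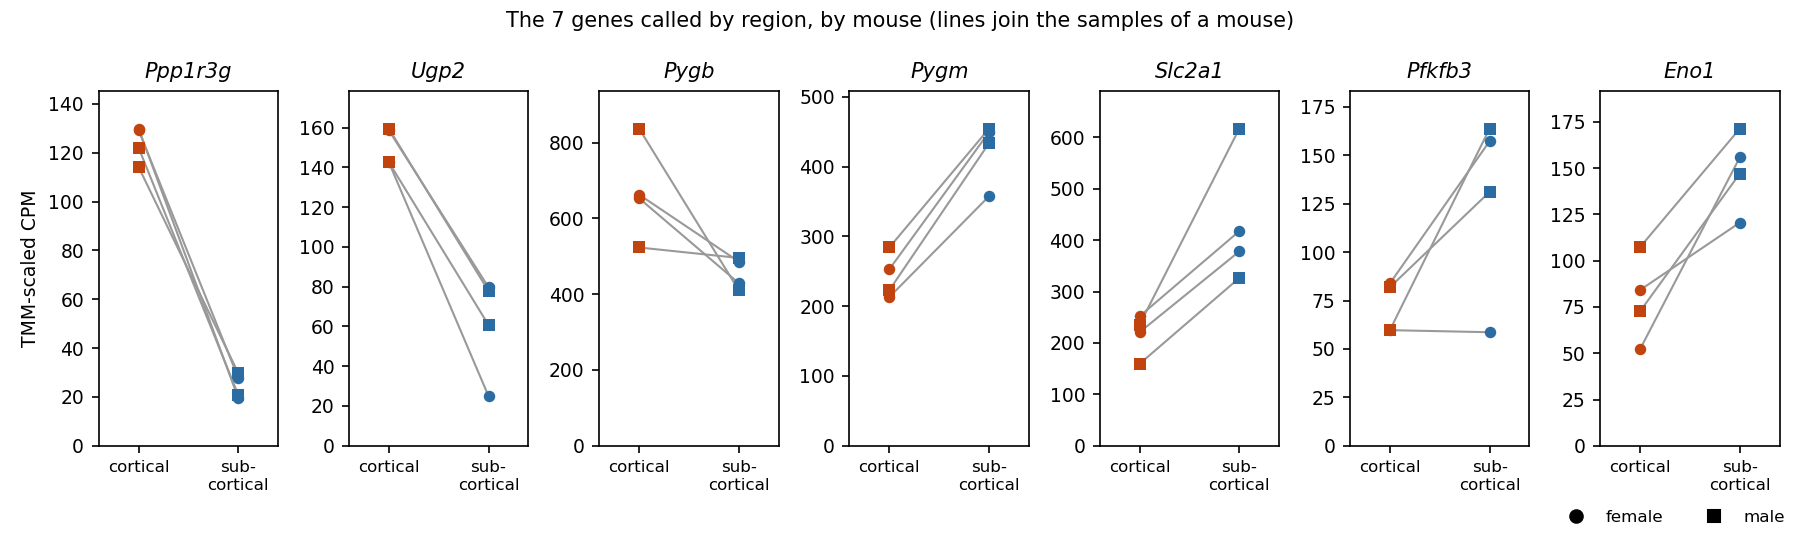
TMM-scaled CPM (y axis, from 0) of the 7 called genes in the cortical (left) and subcortical (right) sample of each mouse, with lines joining the samples of a mouse, circles for females and squares for males. All lines run the same way except for Pfkfb3, where mouse 2 had 59.7 CPM in cortex and 58.6 CPM in subcortex.

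Of the lactate genes 0 of 3 tested were called by edgeR or DESeq2, and Slc16a1 was the only 1 with an unadjusted p under 0.05. Slc16a1, which encodes the monocarboxylate transporter of astrocytes, oligodendrocytes and vessels, had 90.6, 76.1, 52.3 and 77.6 CPM in cortical libraries, against 143.6, 93.7, 121.3 and 95 CPM in subcortical ones. The groups do not overlap, although by a small margin, and the log2 fold change was -0.61 (SE 0.21, 95% interval -1.05 to -0.18, edgeR adjusted p = 0.09). Oligodendrocyte markers were higher in the same libraries, as given above, and their part in this difference was not tested. Slc16a3, the lactate exporter of glycolytic cells, had 5 cortical and 5 subcortical counts. Slc16a7, a transporter known mainly from neurons, had 0 cortical and 1 subcortical counts. A count of 0 allows up to 0.701 to 0.782 CPM in a cortical library, for counting error only.

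Lactate dehydrogenase, which interconverts pyruvate and lactate, is assembled from Ldha and Ldhb subunits. Ldhb, the heart-type subunit, averaged 253.4 ± 17.8 CPM in cortex, against 220.3 ± 42.8 CPM in subcortex (SD, n = 4 each, edgeR adjusted p = 0.616). Ldha, the muscle-type subunit, averaged 67.8 ± 18.5 CPM in cortex, against 61.6 ± 9.06 CPM in subcortex (SD, n = 4 each, edgeR adjusted p = 0.843). The share of Ldhb was 79.2 ± 3.62% in cortical and 77.9 ± 3.42% in subcortical libraries, a difference smaller than the spread between libraries. Of the words in the annotated 3′ ends 20.5% for Ldha and 12.7% for Ldhb also occur in other genes.

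For the entry of pyruvate into mitochondria, 0 of 2 tested genes were called by edgeR, 1 had an unadjusted p under 0.05, and DESeq2 called 1. Pdha1, the catalytic subunit gene of pyruvate dehydrogenase, had 75.9, 77.4, 73.8 and 74.7 CPM in cortical libraries, against 44.5, 40.9, 61.2 and 43.7 CPM in subcortical ones. Its cortical values were the least variable of the tested genes, with a coefficient of variation of 2.09%, and all lay above the subcortical ones. The log2 fold change of 0.66 (SE 0.21) missed the threshold (edgeR adjusted p = 0.06). It passed with DESeq2 (adjusted p = 0.0248), under raw library totals (0.0226) and without subcortical 3 (0.0306). Pdk2, a kinase that inhibits the enzyme, averaged 118.3 ± 16.9 CPM in cortex, against 100 ± 13.3 CPM in subcortex (SD, n = 4 each, edgeR adjusted p = 0.566). Pdk4, a starvation-induced kinase, had 33 cortical and 22 subcortical counts.

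The sums by step ran in different directions. Glucose entry genes summed to 349.3 ± 59.2 CPM in cortex, against 562.5 ± 133 CPM in subcortex, and lower glycolysis genes to 510.2 ± 22 CPM in cortex, against 717.8 ± 85.3 CPM in subcortex (SD, n = 4 each). Both sums were lower in cortex without overlap, but overlapped under raw library totals. Slc2a1 was the largest part of the glucose entry sum, at 217.1 CPM in cortex, against 434.8 CPM in subcortex. Pkm, which was not called by edgeR, was the largest part of the lower glycolysis sum, at 365.5 CPM in cortex, against 489 CPM in subcortex. Pyruvate entry genes summed to 195.8 ± 15.8 CPM in cortex, against 149.6 ± 5.26 CPM in subcortex, higher in cortex without overlap on either scale, as was the glycogen sum. Pdk2, whose product inhibits pyruvate dehydrogenase, was the largest part of the pyruvate entry sum, at 118.3 CPM in cortex, against 100 CPM in subcortex. Neither Pdk2 nor Pdha1 was called by edgeR. Upper glycolysis genes, of which Aldoc is the main part, summed to 5109 ± 463 CPM in cortex, against 4369 ± 717 CPM in subcortex. Lactate genes summed to 395.7 ± 43.9 CPM in cortex, against 395.7 ± 59.4 CPM in subcortex (SD, n = 4 each). The total of the 31 genes other than Aldoc was 3878 ± 42.1 CPM in cortex, against 4009 ± 382 CPM in subcortex (SD, n = 4 each), and it overlapped.

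Over the 26 tested genes, 4 had all cortical libraries above the subcortical ones and 6 had all of them below, 38.5% in either direction. Of all tested genes 6.54% lay above, 5.64% below and 12.2% in either direction. These shares over all genes were not matched for abundance, and most of the list is abundant and was chosen with earlier results known. Within a region the genes varied with a median coefficient of variation of 14.6% in cortical and 19.4% in subcortical libraries. The rest of the pathway was followed in a list of 56 further genes of these steps, of which 39 could be tested. Of these 0 were higher, 2 were lower and 37 were not called by edgeR, or 5.13% called, where 6.81% of all tested genes were. An unadjusted p under 0.05 was found for 8 of the 39 and for 2048 of all 11781 tested genes. The genes called by edgeR were Slc2a4, the insulin-regulated glucose transporter gene, at 20.04 ± 11.7 CPM in cortex, against 51.4 ± 12.2 CPM in subcortex (SD, n = 4 each, log2 fold change -1.36, edgeR adjusted p = 0.014), and Pgm1. Pgm1, a phosphoglucomutase gene at the branch between glycogen and glycolysis, averaged 200.6 ± 30.3 CPM in cortex, against 316.5 ± 86.2 CPM in subcortex (SD, n = 4 each, log2 fold change -0.66, edgeR adjusted p = 0.043). DESeq2 called 2 higher and 3 lower, namely these 2 and 3 that edgeR did not call. They were Pygl, the liver-form phosphorylase gene (15.8 ± 3.1 CPM in cortex, against 5.31 ± 2.39 CPM in subcortex, DESeq2 adjusted p = 0.0156), and Pgm2l1, a relative of Pgm1 (11.6 ± 7.28 CPM in cortex, against 2.94 ± 2.4 CPM in subcortex, DESeq2 adjusted p = 0.0334), both higher (SD, n = 4 each). Pcx, the pyruvate carboxylase gene, was lower by that test (37.4 ± 12.1 CPM in cortex, against 68.6 ± 22.2 CPM in subcortex, SD, n = 4 each, DESeq2 adjusted p = 0.0367).

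The title of the series names female mice, and the sexes were compared as well, on counts summed per mouse (2 females against 2 males). These sums weight each region by its library's depth, whereas the CPM means given below weight both regions equally. Cortical and subcortical totals were 3.63 and 2.48 M in mouse 2, and 4.06 and 3.83 M in mouse 4. The part of this weighting in the sex comparison was not tested. None of the 30 genes tested in this comparison was called by edgeR and 0 had an unadjusted p under 0.05, where 5 of 13402 genes, 0.0373%, were called. The smallest unadjusted p was that of Gbe1, at 18.5 and 15.6 CPM in the 2 females and 21.1 and 30.7 CPM in the 2 males, each the mean over both regions of a mouse (log2 fold change female minus male -0.66, SE 0.33, edgeR adjusted p = 0.999). Ppp1r3g averaged 76.7 CPM in females and 71.7 CPM in males, and Slc2a1 317.2 CPM in females and 334.7 CPM in males. With 2 mice of each sex intervals were wide, from -1.36 to 0.05 for Gbe1.

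Whether the region difference itself depended on sex was tested as an interaction. None of the 29 tested genes was called by edgeR (0 of 13334 over all genes, 0%), and 1 of the 29 had an unadjusted p under 0.05. That gene was Gys1, with 168.9 and 179.6 CPM in cortex against 125.4 and 76.2 CPM in subcortex of the 2 females, and 107.2 and 129.3 against 118.6 and 154.1 CPM in the 2 males (interaction log2 difference 1.01, SE 0.40, edgeR adjusted p = 1). For Ppp1r3g the ratios were 4.64 and 6.64 in females and 5.87 and 3.83 in males, so that both sexes showed the difference.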

How the data were processed

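Messenger RNA of sorted astrocytes was measured in 8 libraries. Per the labels' protocols, the forward QuantSeq 3′ kit was used. FastQC 0.11.5, STAR 2.6.0, HTSeq 0.9.0, DESeq2 1.35.0 and GRCm39 are named in the submitters' processing notes, without settings, strand or molecular identifiers, so counts of overlapping or antisense genes and of close copies are uncertain. Whole-number read counts per gene, as the authors deposited them, were the input. HTSeq's 5 summary rows were left out, and no-feature reads made up 30.2 to 40.7%. A normalized table of 8 columns was not used here. Identifiers gave symbols for 52083 of 55417 rows.

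Region was tested in R 4.3.3 with edgeR 4.0.16 after filterByExpr (minimum count 10, total 15), TMM and quasi-likelihood tests without a block, adjusted by Benjamini-Hochberg at 0.05 over all tested genes. Sex used sums per mouse, and the interaction a mean per sex and region. Shares and sums had no test. Alternatives were RLE size factors, raw totals, DESeq2 1.42.0, limma-voom (limma 3.58.1), no filter, 5 CPM in 4 libraries, a sex covariate, mouse blocking and single libraries left out. Scripts were tested on simulated data. Mouse numbers pair samples, since both came from 1 animal, and deviations correlated at 0.0247 to 0.0656 within mice and -0.0935 to 0.0522 between mice.

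All 32 genes are accounted for, and genes of the wider pathway called by edgeR are named, with those that DESeq2 alone called added after their values were seen. Members and lists were chosen with earlier results of these data known. Promoters are from RefSeq (GRCm38.p6), and 3′ end words of 50 bases from GENCODE. Floors (3 counts) cover counting error only.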

Additional observations from a re-analysis of the deposited data

Results flagged for a closer look

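In 6 of 63 sets of 4 libraries with values that differ, 1 library lay far from the other 3. Chance alone brings such a gap in about 1 in 20 sets of normally distributed values. That rate does not apply where the other 3 libraries are at 0, as in 4 of the 6. Pfkp had 120.5 CPM in cortical 3, against 149.1 to 153.7 CPM in the other cortical libraries. Aldoa had 290.4 CPM in subcortical 1, against 196.1 to 207.9 CPM in the other subcortical libraries. The other 4 rest on 1 to 5 counts in a gene otherwise at 0 in that region: Pgam1 with 1.25 CPM in subcortical 1, Slc16a3 with 1.30 CPM in the cortical library of mouse 2 and with 1.39 CPM in subcortical 4, and Slc16a7 with 0.416 CPM in subcortical 1.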

How the results depend on the processing

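Ppp1r3g, Ugp2, Pygm and Slc2a1 kept their direction and call under all 16 alternatives, with log2 fold changes of 2.24 to 2.55, 1.05 to 1.48, -0.89 to -0.58 and -1.12 to -0.78. Over the 26 tested genes 388 alternative values kept direction and call, 18 lost a call, 5 gained one and 6 turned sign. Under raw library totals 5 listed genes were higher and 2 lower, and 682 and 244 over all genes. Hk1 turned to 0.16 there. Leaving out libraries gave -0.14 to 0.081 for Hk1, -0.0037 to 0.30 for Ldha, -0.089 to 0.29 for Pfkl and -0.013 to 0.26 for Ppp1r3c. The cause was not tested. Leaving out a library also gave 2 or 3 higher and 3 or 4 lower listed genes, and 312 to 389 higher and 302 to 403 lower over all genes.

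With the mouse as a replicate block 2 listed genes were higher and 4 lower, since Pygb was lost, and 885 of all genes were called. The block changed no other call among the listed genes. Genes called by sex over all genes numbered 15 without a filter and 12 to 30 when a mouse was left out. The interaction gave 1 gene without a filter, 1 with the mouse as a block and 1 or 2 when a library was left out. The lone sample that then remained of a sex and region was assumed to vary like the others. None of these was a listed gene. Pfkfb2, Pgk1, Pgam1, Slc16a3, Slc16a7 and Pdk4 did not pass the count filter of the region test.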

Other observations

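Transcripts of some glycolytic enzymes that most cells make in large amounts were scarce in these tables, which was noticed after the values were seen. Gapdh, the glyceraldehyde phosphate dehydrogenase gene, had 92, 84, 63 and 46 counts in the cortical libraries of mice 1 to 4, against 54, 25, 64 and 40 in the subcortical ones. Of the 50-base words in its annotated 3′ ends 78.3% also occur in transcripts of 175 other genes. Pgk1 had 61 counts and Pgam1 79 counts over all 8 libraries, and 0% of their words occur in other annotated transcripts. By contrast, Tpi1 had 106 to 321 counts per library. The part of copies elsewhere in the genome in these low counts was not tested.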
